A study of Mus musculus with 25 samples.

Results

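The TRIM genes encode proteins with a tripartite motif, in which a RING finger, B-box zinc fingers and a coiled coil stand in a row, and most of them act as ubiquitin ligases. The genes studied here were chosen by name: every gene whose platform symbol was Trim followed by a number, with or without a letter, on a row of the array that carried 1 symbol. There were 58 such genes among the 19938 genes measured, and each was read by 1 transcript cluster. The data were expression arrays of cells sorted from Peyer's patches, the lymphoid follicles of the small intestine, before and after an oral ligand of Toll-like receptor 7 (TLR7).

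The RING finger of a TRIM protein recruits an E2 enzyme that carries ubiquitin, and the domain at the other end of the protein, often a SPRY domain, picks the target. Many TRIM proteins attach ubiquitin chains to sensors and adaptors of antiviral signalling, and many TRIM genes are themselves induced by type I interferon. Other branches of the family work in the nucleus as transcriptional co-regulators, on microtubules, or in protein degradation in many tissues.

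All groups were sorted from wild-type female C57BL/6 mice aged 6 to 8 weeks, with 42 mice pooled for each replicate, so an array measures a pool and not an animal. The R848-treated groups were CD8a+ conventional dendritic cells (cDC, 5 arrays) and CD11b+ cDC (3 arrays), both taken 9 h after gavage with R848, a synthetic TLR7 ligand. The untreated groups were TIM-4+ LysoMac (3 arrays), TIM-4- LysoMac (3 arrays), CD8a+ cDC (3 arrays), double-negative (DN) cDC, which lack CD4, CD8a and CD11b (3 arrays), and CD11b+ cDC (5 arrays). LysoMac are lysozyme-expressing macrophages of the patch. They were sorted as SIRPa+ BST2+ CD4+ cells low for MHC class II, and cDC as BST2- cells positive for MHC class II, with SIRPa on CD11b+ and DN cDC and not on CD8a+ cDC. Cells were first enriched on CD11c beads, and small amounts of RNA were amplified before hybridisation.

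The deposited values were log2 signals, so a difference of 1 is a doubling. They summarise 25 arrays in 3 sets that did not share a row order. The row names belonged to the R848 arrays, and the rows of both untreated sets were aligned to them as described in the processing section. Of the 58 genes, 42 had an accepted row in all 3 sets, 46 in the set with untreated CD11b+ cDC, DN cDC and LysoMac, and 51 in the untreated CD8a+ set. Trim13, Trim58 and Trim67 were measured in the R848 arrays only. Trim29, Trim33, Trim36 and Trim71 had no accepted row in the untreated CD8a+ arrays, and 9 others, among them Trim26 and Trim37, had none in the other untreated set. Rows were matched partly by level, so a gene with a large response to R848 was less likely to be kept. The untreated CD8a+ arrays also ran lower as a whole, with medians of 4.51 to 4.59 over the genes common to all sets, against 4.67 to 4.90 in the other arrays. Over all genes the median R848 response of CD8a+ cDC was therefore 0.18, and the median difference between untreated CD8a+ and CD11b+ cDC was -0.19. Differences that involve these arrays are to be read against that median.

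The sorts were checked by marker RNA. Xcr1, a marker of the CD8a+ type, averaged 8.59 in R848 CD8a+ and 10.91 in untreated CD8a+ cDC, and was at background in the other 5 groups. Mertk, a macrophage marker, averaged 8.84 in TIM-4+ and 8.46 in TIM-4- LysoMac and was at background in all cDC groups. Fcgr1, another macrophage marker, did not follow it, at 4.3 in both LysoMac groups, 5.1 in untreated DN cDC and 4.2 in untreated CD11b+ cDC. Itgam, which encodes CD11b itself, averaged 4.20 in R848 CD11b+ cDC, which is below background, against 7.07 in untreated CD11b+ cDC. Some other markers set that group apart from R848 CD8a+ cDC. Sirpa averaged 9.72 in R848 CD11b+ and 6.38 in R848 CD8a+ cDC, and Irf4 averaged 8.25 and 6.72. Clec9a averaged 3.68 in R848 CD11b+ and 9.01 in R848 CD8a+ cDC. Cd209a (4.09 and 3.99) and Mgl2 (3.46 and 3.37), also markers of the CD11b+ type, were at background in both R848 groups. Cd8a averaged 6.94 in R848 CD11b+ cDC, against 5.71 in untreated CD11b+ and 10.53 in R848 CD8a+ cDC.

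A TRIM gene was taken as above background in a group when its mean exceeded the 95th percentile of olfactory, vomeronasal and taste receptor genes, at 4.11 to 4.32 depending on the group. By this measure 37 TRIM genes were above background in every group that measured them, 4 in some groups and 17 in none. The 17 included Trim10, Trim31, Trim38, Trim55, Trim69 and Trim72. Where both groups lie below background a gene is counted, and no size is read from its difference.

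Several antiviral TRIM genes lie close together on mouse chromosome 7, and some of them carry the core of an interferon-stimulated response element near the start of transcription. Trim6, Trim34a, Trim12a, Trim12c, Trim30a and Trim30d lie at chr7:104218795-104507853 (GRCm38.p6), and Trim21 lies at chr7:102557920-102565482. The motif searched was GAAANNGAAA, or TTTCNNTTTC on the other strand, in windows of 250 bases before and 50 bases after each RefSeq start. It was present in 1131 of 32851 such windows (3.44%) and for 1079 of 27025 genes (3.99%). The table held 46 of the 58 TRIM genes, and 8 of these had a match. Of the 11 TRIM genes in the table that passed the test as higher in both R848 responses described below, 6 had a match: Trim12a, Trim12c, Trim21, Trim30a, Trim30d and Trim34a. Of the 23 others tested in both responses, 1 did (Trim2). The remaining gene with a match was Trim26, which was tested in the CD8a+ response only and was not called there. A match is a run of letters and not a measured binding site. The windows of Trim30a and Trim30d were identical at 276 of 295 aligned bases (93.6%) and those of Trim12a and Trim12c at 188 of 260 (72.3%), so the paralogs do not count as separate occurrences. The windows below are shown because these antiviral genes were called higher in both R848 responses and hold the motif. Trim12c also meets this rule, but its window is not printed. They come from the RefSeq table of GRCm38.p6 and run 5′ to 3′ along the gene, with the motif in capitals: Trim30a at chr7:104465144-104465443 on the minus strand, Trim30d at chr7:104507800-104508099 (minus), Trim12a at chr7:104315446-104315745 (minus), Trim34a at chr7:104244207-104244506 (plus) and Trim21 at chr7:102565433-102565732 (minus).
Trim30a: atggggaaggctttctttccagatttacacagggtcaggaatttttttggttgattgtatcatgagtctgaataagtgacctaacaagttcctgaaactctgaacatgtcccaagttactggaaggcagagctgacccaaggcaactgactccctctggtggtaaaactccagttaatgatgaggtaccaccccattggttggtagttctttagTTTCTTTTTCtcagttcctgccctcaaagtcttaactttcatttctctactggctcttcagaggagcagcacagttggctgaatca
Trim30d: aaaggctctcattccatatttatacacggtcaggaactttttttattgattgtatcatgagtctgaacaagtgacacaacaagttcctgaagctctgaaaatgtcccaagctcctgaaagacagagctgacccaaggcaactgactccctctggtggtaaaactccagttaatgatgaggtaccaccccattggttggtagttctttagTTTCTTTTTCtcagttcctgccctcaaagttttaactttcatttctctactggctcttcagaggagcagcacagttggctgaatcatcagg
Trim12a: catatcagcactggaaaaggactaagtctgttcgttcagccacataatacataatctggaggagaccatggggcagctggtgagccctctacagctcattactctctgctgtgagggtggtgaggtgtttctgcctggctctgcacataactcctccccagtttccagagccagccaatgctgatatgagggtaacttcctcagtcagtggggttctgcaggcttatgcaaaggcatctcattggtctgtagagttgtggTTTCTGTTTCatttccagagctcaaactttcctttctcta
Trim34a: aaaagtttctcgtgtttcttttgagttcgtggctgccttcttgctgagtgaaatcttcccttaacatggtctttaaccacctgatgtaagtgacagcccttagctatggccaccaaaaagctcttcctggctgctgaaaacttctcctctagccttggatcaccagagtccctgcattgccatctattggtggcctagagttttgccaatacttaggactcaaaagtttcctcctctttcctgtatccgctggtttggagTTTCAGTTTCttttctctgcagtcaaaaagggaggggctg
Trim21: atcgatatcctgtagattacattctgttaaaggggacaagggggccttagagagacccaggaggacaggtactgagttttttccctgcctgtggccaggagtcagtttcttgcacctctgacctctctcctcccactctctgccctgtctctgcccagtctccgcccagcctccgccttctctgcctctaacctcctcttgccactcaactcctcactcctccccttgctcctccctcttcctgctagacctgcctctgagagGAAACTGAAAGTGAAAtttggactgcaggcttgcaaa
The motif began 36 bases before the start in Trim30a and 41 bases before it in Trim30d, with the same letters, TTTCTTTTTC. It began 10 bases after the start in both Trim12a and Trim34a. In Trim21 it lay on the printed strand, 13 bases after the start, as 2 overlapping matches.

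Most antiviral TRIM genes were higher in R848 than in untreated CD11b+ cDC. All R848 arrays form one array set and the untreated arrays the others, so treatment and array set cannot be told apart in either R848 response. Of the 12 antiviral and interferon-linked members tested, 11 rose and the remaining one, Trim69, did not pass the test, with a median difference of 0.73, against -0.03 over all genes. Over the whole family, 17 of 46 TRIM genes were higher after R848 and 6 were lower. In the same comparison 17.7% of all 16547 genes tested were called higher and 23.2% lower, by limma with a Benjamini-Hochberg adjusted p under 0.05, the threshold used throughout. Of the 17 higher genes 2 (Trim38 and Trim55), and of the 6 lower ones 1 (Trim42), were below background in both groups. The median of all 46 members was 0.04.

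Trim30d and its neighbour Trim30a, which in mice restrains Toll-like receptor signalling, responded clearly. Trim30d measured 9.71, 9.62 and 9.54 in R848 CD11b+ cDC, against 7.60, 7.96, 7.66, 7.31 and 7.26 in untreated CD11b+ cDC, a difference of 2.06 ± 0.11 (SE, adjusted p = 8.5e-12). Trim30a measured 10.12, 10.38 and 10.21 in R848 CD11b+ cDC, against 8.46, 8.43, 8.70, 8.79 and 9.18 in untreated CD11b+ cDC, a difference of 1.52 ± 0.12 (adjusted p = 2.7e-09). For both genes every R848 array lay above every untreated array. The family's Trim30, Trim12 and Trim34 genes are near copies, and how far their probes read one another is not known, so single members of a pair are uncertain.

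Trim34a, an interferon-induced member of the same cluster, measured 7.09, 7.17 and 7.31 in R848 CD11b+ cDC, against 5.76, 5.71, 5.81, 5.19 and 4.99 in untreated cells (difference 1.70 ± 0.18, adjusted p = 1.8e-07). Trim12c, a mouse relative of the retroviral restriction factor TRIM5, measured 7.25, 7.71 and 7.18 after R848, against 6.25, 5.53, 5.83, 6.12 and 5.42 without it (difference 1.55 ± 0.28, adjusted p = 0.00015). Its neighbour Trim12a measured 8.03, 8.10 and 8.47 after R848, against 7.74, 7.72, 8.02, 7.37 and 7.40 in untreated cells (difference 0.55 ± 0.16, adjusted p = 0.0094). The Trim34a and Trim12c groups stood well apart, whereas the lowest R848 array of Trim12a was only just above the highest untreated one. Without R848 replicate 3, Trim12a did not pass the test (difference 0.41, adjusted p = 0.081).

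Other antiviral members rose as well. Trim14, an adaptor of mitochondrial antiviral signalling in human cells, rose by 1.07 ± 0.16, to 8.22, 7.86 and 7.73 in R848 CD11b+ cDC, against 6.63, 6.50, 6.90, 7.21 and 7.06 in untreated ones. Trim25, which attaches ubiquitin to the RNA sensor RIG-I, rose by 0.55 ± 0.10, to 8.69, 8.43 and 8.62, against 7.74, 8.08, 8.10, 8.09 and 8.12 in untreated cells. Trim21, an antibody receptor of the cytosol, rose by 0.81 ± 0.17. Arrays of the R848 and untreated groups did not overlap for any of the 3. Trim56, which acts in DNA sensing through STING, rose by 0.66 ± 0.22 (adjusted p = 0.023), and it lost the call without either of untreated replicates 1 and 3 or of R848 replicates 2 and 3 (adjusted p from 0.054 to 0.083). Trim6, whose human counterpart builds free ubiquitin chains for interferon signalling, rose by 0.57 ± 0.14. Trim69 did not pass the test (difference -0.14), and Trim26 had no accepted row in untreated CD11b+ cDC.

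**Figure D1:**
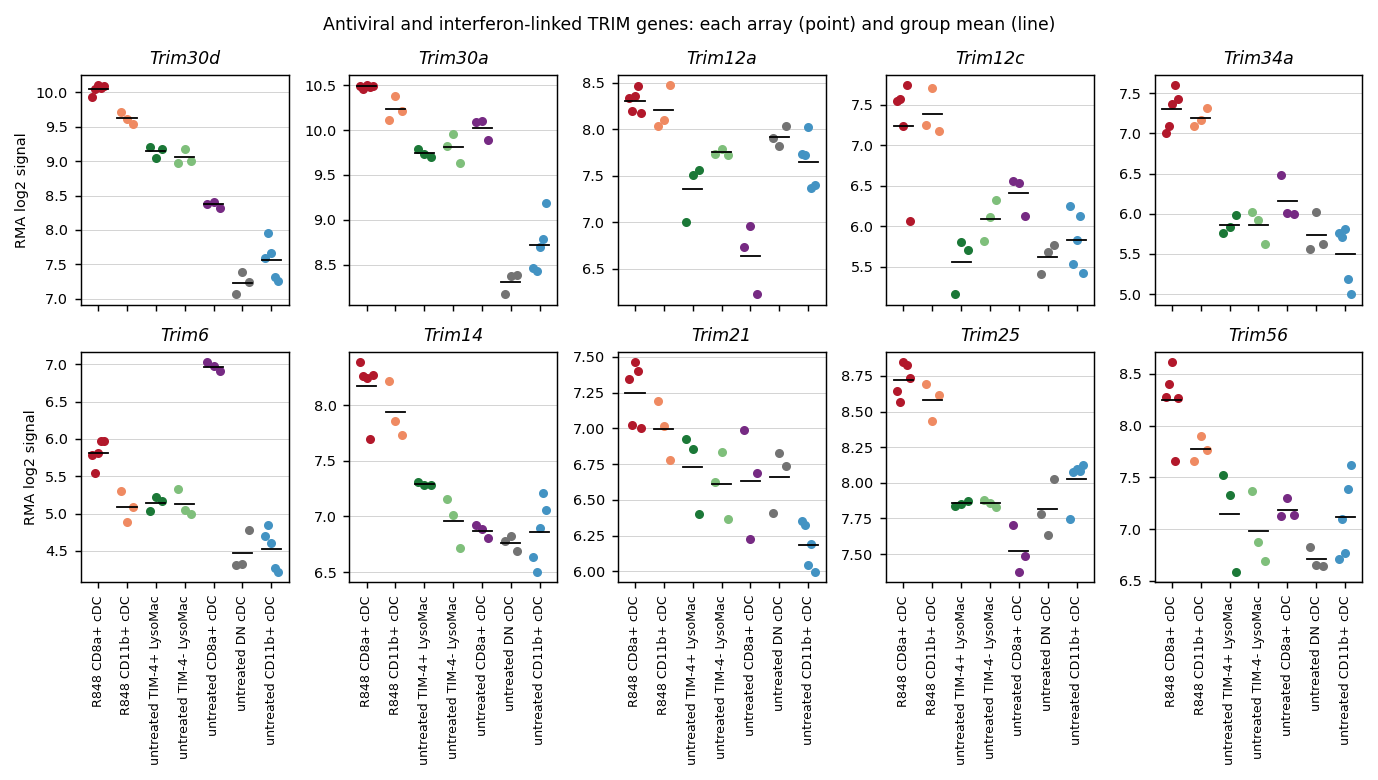
Log2 signal of antiviral TRIM genes on every array, by group, with R848 groups to the left. Each point is 1 array and each bar the group mean. For Trim30d the R848 CD8a+ arrays (9.93 to 10.11) and R848 CD11b+ arrays (9.54 to 9.71) all lie above the untreated cDC arrays (7.06 to 8.41), and for Trim6 the untreated CD8a+ arrays (6.91 to 7.03) are the highest of all groups.

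The nuclear co-regulators of the TIF1 group moved in both directions in CD11b+ cDC. Of the 4 members tested, 3 rose and 1 fell. Trim33, which acts on SMAD signalling and chromatin, measured 8.16, 8.07 and 8.26 in R848 CD11b+ cDC, against 7.18, 6.77, 6.86, 6.90 and 7.34 in untreated ones (difference 1.15 ± 0.13, adjusted p = 8.6e-07). Trim24, a co-regulator of nuclear receptors, measured 7.56, 7.53 and 7.62 after R848, against 6.65, 6.75, 6.70, 6.48 and 6.59 without it (difference 0.93 ± 0.08, adjusted p = 1.5e-08). Trim28, the corepressor recruited by KRAB zinc finger proteins, measured 6.83, 6.90 and 6.66 after R848, against 7.78, 7.50, 7.44, 7.87 and 7.83 in untreated cells (difference -0.89 ± 0.12, adjusted p = 5.1e-06). Every R848 array of Trim33 and Trim24 was above, and every R848 array of Trim28 below, all untreated CD11b+ arrays. Trim66 rose by 0.27 ± 0.09 at a level close to background.

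Among members with roles in signalling and degradation, 2 of 12 rose and 2 fell in CD11b+ cDC. Trim35, a ligase described for IRF7, rose by 0.68 ± 0.17, and Trim27, a partner of endosomal sorting, rose by 0.61 ± 0.10. Trim47 (-0.45 ± 0.14) and Trim8 (-0.47 ± 0.17) were lower, as was the NHL-repeat member Trim3 (-0.45 ± 0.15). These 3 did not pass the test after cyclic loess normalisation (adjusted p = 0.13 for Trim47, 0.24 for Trim8 and 0.21 for Trim3). Of the microtubule-binding members Trim36 fell, to 4.38, 4.56 and 4.62 in R848 CD11b+ cDC, against 5.33, 5.33, 5.45, 5.30 and 5.18 in untreated CD11b+ cDC (difference -0.80 ± 0.10, adjusted p = 5.9e-06).

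In CD8a+ cDC, 10 of the 13 antiviral members rose after R848 and 1 fell, with a median of 0.83, against 0.18 over all genes. Over the family 25 of 51 TRIM genes were higher and 4 were lower. On the deposited scale, where the untreated CD8a+ arrays ran low, 41.7% of all 16598 genes tested were called higher and 15% lower. With all arrays at the same median, 3494 of these genes were called higher and 3519 lower. Of the 25 higher TRIM genes, 11 were below background in both groups. Once all arrays were set to the same median, 14 TRIM genes were called higher and 8 lower, and after cyclic loess 15 higher and 6 lower of 42. Of the calls on the deposited scale, 14 higher and 4 lower held at a common median and, where cyclic loess covered the gene, after it too. Cyclic loess covered only the 42 genes with a row in all sets, so the lower call of Trim37 was not tested by it.

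**Figure D2:**
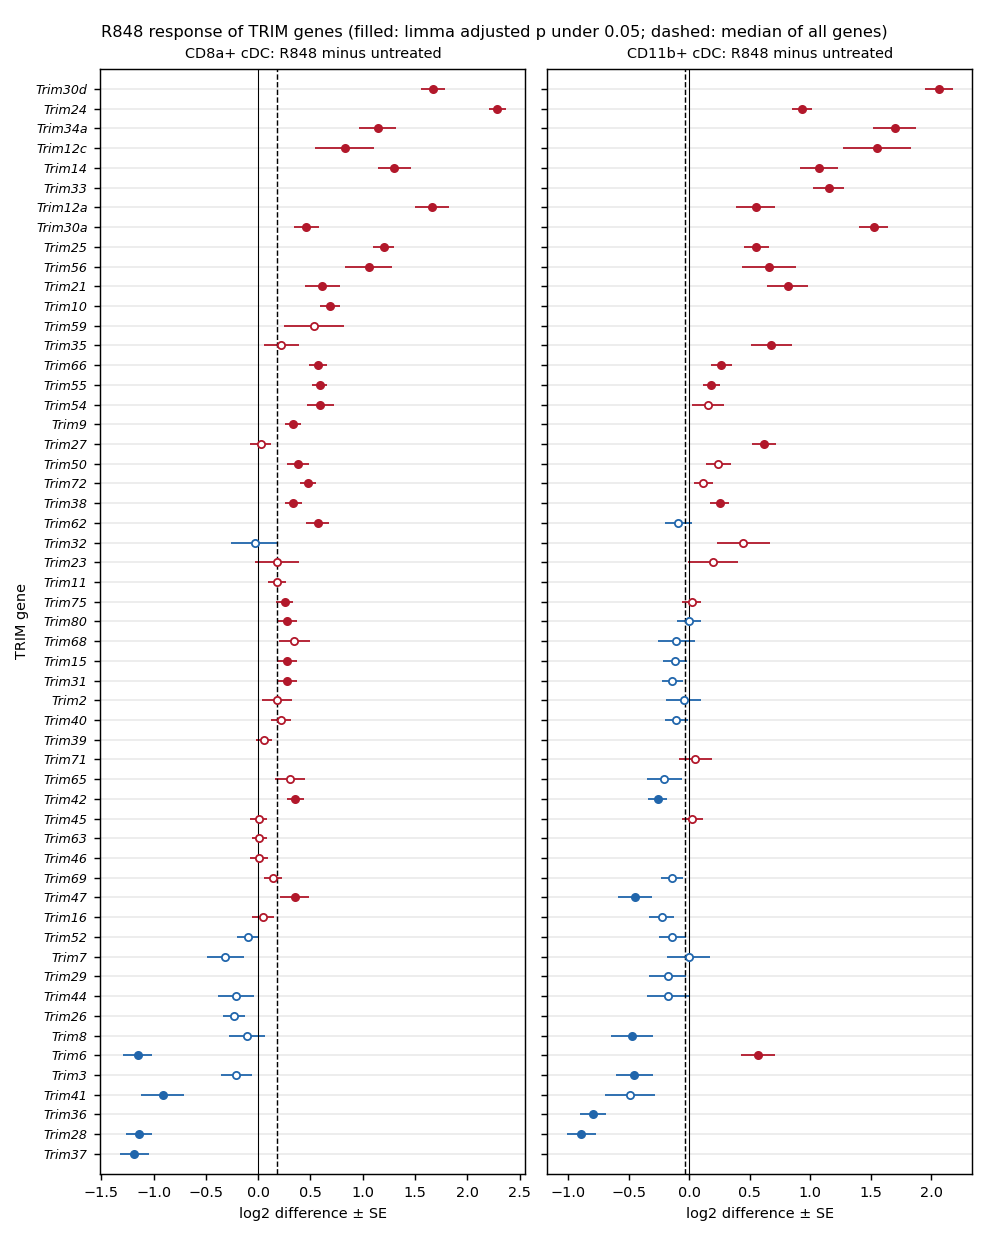
R848 response of each TRIM gene as a log2 difference, R848 minus untreated, in CD8a+ and CD11b+ cDC, with standard errors from limma, filled points for an adjusted p under 0.05 and a dashed line at the median of all genes. Trim24 has the highest value in CD8a+ cDC (2.29) and Trim30d in CD11b+ cDC (2.06), and Trim6 stands on opposite sides of 0 in the 2 subsets (-1.15 in CD8a+ and 0.57 in CD11b+ cDC).

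Trim24 gave the largest response of the family in CD8a+ cDC. It measured 8.08, 8.04, 8.17, 8.46 and 8.28 in R848 CD8a+ cDC, against 5.95, 5.99 and 5.81 in untreated CD8a+ cDC, a difference of 2.29 ± 0.08 (adjusted p = 2.6e-15), or 2.10 relative to all genes. Trim28 again ran the other way, at 6.59, 6.32, 6.51, 6.53 and 6.45 after R848, against 7.54, 7.65 and 7.67 in untreated cells (difference -1.14 ± 0.12, -1.32 relative to all genes, adjusted p = 9.7e-08). The groups did not overlap for either gene. Trim66, the remaining TIF1 member tested, rose by 0.57 ± 0.09 (0.39 relative to all genes), close to background.

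Of the antiviral genes, Trim30d measured 9.93, 10.06, 10.11, 10.06 and 10.09 in R848 CD8a+ cDC, against 8.38, 8.41 and 8.32 in untreated ones (difference 1.68 ± 0.11, 1.49 relative to all genes, adjusted p = 9.2e-11). Trim12a measured 8.33, 8.20, 8.35, 8.46 and 8.17 after R848, against 6.73, 6.96 and 6.22 without it (difference 1.66 ± 0.16, 1.48 relative to all genes, adjusted p = 2.5e-08). Both genes separated R848 from untreated arrays by more than the spread within either group. Trim14 rose by 1.30 ± 0.16, Trim25 by 1.20 ± 0.10, Trim34a by 1.14 ± 0.18 and Trim56 by 1.06 ± 0.22, and the 4 kept differences of 0.87 to 1.12 relative to all genes. Trim21 rose by 0.61 ± 0.17 (0.43 relative to all genes), and its call was lost without untreated replicate 2 (adjusted p = 0.057).

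The CD8a+ responses of Trim30a and Trim12c were less secure. Trim30a measured 10.50, 10.46, 10.50, 10.48 and 10.49 in R848 CD8a+ cDC, against 10.09, 10.10 and 9.89 in untreated ones, a difference of 0.46 ± 0.12 (adjusted p = 0.0031), or 0.28 relative to all genes, and it did not pass with the arrays at a common median. Trim12c measured 7.54, 7.57, 7.24, 7.74 and 6.07 after R848, against 6.55, 6.53 and 6.13 in untreated cells. Replicate 5 of the R848 group lay below all 3 untreated arrays, and the difference of 0.83 ± 0.28 (adjusted p = 0.016) did not pass at a common median or without untreated replicate 3 (adjusted p = 0.081). Trim26 had no call at 5.63 to 5.98 in R848 CD8a+ cDC, against 5.86 to 6.10 in untreated ones (adjusted p = 0.075), but it passed as lower with the arrays at a common median, without untreated replicate 2 and without R848 replicate 5. Trim38 and Trim69 were below background.

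Trim6 fell in CD8a+ cDC. It measured 5.78, 5.55, 5.81, 5.97 and 5.98 in R848 CD8a+ cDC, against 7.03, 6.98 and 6.91 in untreated CD8a+ cDC (difference -1.15 ± 0.14, -1.34 relative to all genes, adjusted p = 8.8e-07). Trim37, a ligase linked to peroxisomes and centrosomes, measured 5.31, 5.43, 4.99, 5.15 and 5.21 after R848, against 6.48, 6.25 and 6.48 without it (difference -1.19 ± 0.14, -1.37 relative to all genes, adjusted p = 2.3e-05). Trim41 measured 5.27, 5.43, 5.44, 5.65 and 5.89 after R848, against 6.44, 6.16 and 6.75 in untreated cells (difference -0.91 ± 0.21, -1.10 relative to all genes, adjusted p = 0.00084). The arrays of the R848 and untreated groups did not overlap for these 3 genes. Of the 3 NHL-repeat members tested by limma, Trim2, Trim3 and Trim32, none passed even at an unadjusted p under 0.05. Of the remaining members above background, Trim62 rose by 0.57 ± 0.11 (0.38 relative to all genes) and Trim54, of the muscle RING finger type, by 0.60 ± 0.13 (0.41 relative to all genes). Trim10, Trim55 and Trim72 passed the test but were below background in both groups.

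**Figure D3:**
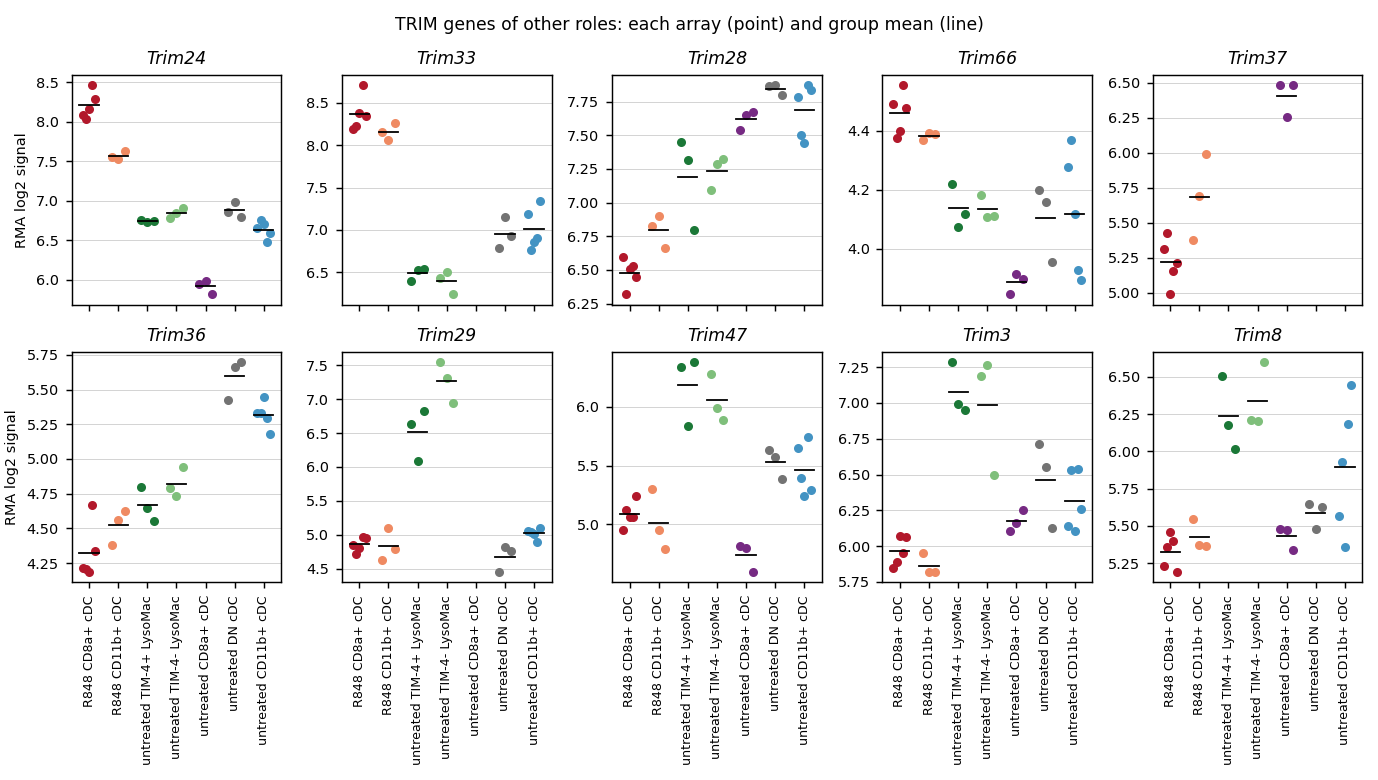
Log2 signal of TRIM genes outside the antiviral list on every array, by group. Each point is 1 array and each bar the group mean. Trim24 is highest in R848 CD8a+ cDC (8.04 to 8.46), Trim28 has its lowest group means after R848 (arrays from 6.32 to 6.90), and Trim29 is highest in both LysoMac groups (6.09 to 7.54).

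Genes of the same pathway outside the family also changed. Their counts stand against the shares of all genes called higher, 41.7% in CD8a+ and 17.7% in CD11b+ cDC, and their CD8a+ differences against the all-gene median of 0.18. Of the sensing and interferon genes, 13 of 20 rose and 3 fell after R848 in CD11b+ cDC, and 13 of 18 rose and 1 fell in CD8a+ cDC. Irf7, the regulator that amplifies interferon production, rose by 3.65 in CD8a+ and 3.80 in CD11b+ cDC. Mx1, a classical interferon target, rose by 3.92 in CD8a+ and 3.44 in CD11b+ cDC, and Ddx58, which encodes RIG-I, by 2.70 in CD8a+ and 1.41 in CD11b+ cDC. Of the E1 and E2 enzymes that supply ubiquitin or ISG15, 6 of 9 rose in CD8a+ cDC and 6 of 13 in CD11b+ cDC, with 0 lower in either. The interferon-induced E1 enzyme for ISG15, Uba7, rose by 1.42 in CD8a+ and 0.55 in CD11b+ cDC, and its partner E2 Ube2l6 rose by 3.09 in CD11b+ cDC. Of TRIM proteins with other symbols, 1 of 2 tested rose in CD8a+ and 1 of 3 in CD11b+ cDC. It was Pml in both, by 1.22 in CD8a+ and 1.70 in CD11b+ cDC, while Mid2 (0.11 in CD8a+ and -0.18 in CD11b+ cDC) and Mid1 (0.01 in CD11b+ cDC) were not called.

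Markers of other cells also differed between these groups. In CD11b+ cDC all 5 B cell markers tested were higher, with array means of 7.87 to 8.57 after R848, against 5.99 to 6.80 in untreated cells, and 3 of 4 plasma cell markers were higher (7.18 to 8.37 after R848, against 5.48 to 6.77). T cell markers went the other way there, with 1 of 5 higher and 4 lower (5.30 to 5.51 after R848, against 5.52 to 6.28), and 3 of 6 epithelial markers were lower (4.58 to 4.74 against 5.31 to 6.78). In CD8a+ cDC 4 of 5 B cell markers (5.85 to 6.79 after R848, against 4.58 to 5.09 untreated), 4 of 5 plasma cell markers (6.32 to 7.72 against 5.15 to 6.05, with 1 lower), 4 of 4 T cell markers (5.16 to 6.45 against 4.24 to 4.52) and 3 of 4 markers of NK cells and innate lymphoid cells (5.77 to 6.62 against 3.57 to 4.03) were higher. In the same CD8a+ comparison 5 of 6 markers of CD8a+ cDC themselves were lower (8.19 to 8.47 after R848, against 10.21 to 10.30), and in CD11b+ cDC 3 of 5 markers of the CD11b+ type were lower (5.74 to 6.10 against 7.38 to 7.97). The part of these shifts in the TRIM responses was not tested. In sorted bulk RNA, a change in the number of cells of a type and a change in RNA per cell cannot be told apart.

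The subset difference, the R848 response of CD8a+ cDC minus that of CD11b+ cDC, was tested directly for the 42 genes with a row in all sets. Of these, 10 were called higher, which means a more positive response in CD8a+ cDC, and 3 lower, where 27.4% of all 14330 genes were called higher and 6.12% lower. The median over all genes was 0.21, which carries the low level of the untreated CD8a+ arrays. Untreated CD8a+ and untreated CD11b+ cDC lie in different array sets, so subset and array set cannot be told apart in this difference. At a common median 4 were called higher and 7 lower, and after cyclic loess 5 higher and 6 lower. The calls that held under all scalings were Trim24, Trim12a, Trim47 and Trim42 (higher, Trim42 below background) and Trim6, Trim30a and Trim27 (lower).

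Trim6 had the largest subset difference, -1.72 ± 0.20 (adjusted p = 2.1e-06), as it fell in CD8a+ cDC and rose in CD11b+ cDC. Trim30a followed with -1.06 ± 0.17 (adjusted p = 8.9e-05), with a response of 0.46 in CD8a+ cDC and of 1.52 in CD11b+ cDC. Trim27 differed by -0.59 ± 0.14, with 0.02 in CD8a+ cDC, which was not called, and 0.61 in CD11b+ cDC. Its row alignment was among the weakest accepted, with neighbourhood correlations of 0.73 and 0.71. In the other direction Trim24 differed by 1.35 ± 0.12 (adjusted p = 2.5e-08) and Trim12a by 1.11 ± 0.23 (adjusted p = 0.00087). Both genes were lower in untreated CD8a+ than in untreated CD11b+ cDC. Trim47 differed by 0.80 ± 0.20, with 0.35 in CD8a+ cDC, called on the deposited scale alone, and -0.45 in CD11b+ cDC. Trim25 (0.65 ± 0.14) and Trim62 (0.66 ± 0.16) were called on the deposited scale and not at a common median. Trim30d (-0.39 ± 0.16, adjusted p = 0.068) was not called there, but passed in both rescalings, at -0.64 and -0.63. Trim34a (-0.55 ± 0.25, adjusted p = 0.096) and Trim12c (-0.72 ± 0.40, adjusted p = 0.16) were not called.

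**Figure D4:**
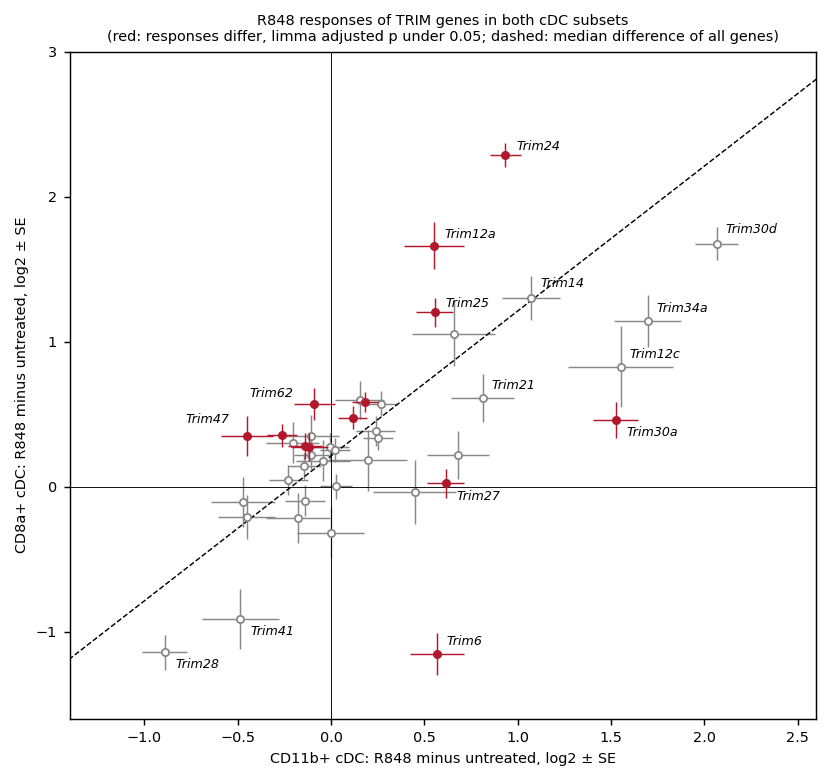
R848 response in CD8a+ cDC against that in CD11b+ cDC for the 42 TRIM genes measured in all sets, both as log2 differences. Bars are standard errors, the dashed line is the diagonal shifted by the median subset difference of all genes (0.21), and filled points passed the test of the difference. Trim24 and Trim12a lie on the side of CD8a+ cDC, and Trim6 and Trim30a on that of CD11b+ cDC.

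After R848, 5 of 58 TRIM genes were called between the 2 cDC subsets, beside 2481 of all 19938 genes. Of 58 tested within the R848 arrays, which need no row alignment, 4 were higher in CD8a+ than in CD11b+ cDC and 1 was lower, with 5.73% of all 19938 genes called higher and 6.72% lower. Trim6 (5.55 to 5.98 in CD8a+, against 4.88 to 5.31 in CD11b+ cDC) differed by 0.72 ± 0.14 (adjusted p = 0.0011). Trim24 (8.04 to 8.46 in CD8a+, against 7.53 to 7.62 in CD11b+ cDC) differed by 0.64 ± 0.08 (adjusted p = 9.8e-06). These 2 calls held under both rescalings. Trim30d was 0.42 ± 0.11 and Trim35 0.53 ± 0.17 higher, and Trim37 was 0.47 ± 0.14 lower, in CD8a+ cDC, and these 3 calls did not hold under every scaling or without single arrays. All 6 B cell markers were lower in CD8a+ cDC in this comparison (6.20 to 7.22, against 7.70 to 8.44 in CD11b+ cDC). So were 5 of 7 macrophage markers (5.02 to 6.24 against 6.79 to 7.40) and 3 of 5 of plasmacytoid dendritic cells (6.58 to 7.10 against 8.19 to 8.30). Neutrophil markers had 2 of 5 higher, and those of NK and innate lymphoid cells 2 of 5 higher and 1 lower. Fewer changed for plasma, T, epithelial and stromal cells. The part of these markers in the 5 calls was not tested.

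Without R848 the comparison of the subsets crosses 2 array sets, so subset and array set cannot be told apart. Of 42 TRIM genes, 8 were higher in untreated CD8a+ than in untreated CD11b+ cDC and 14 lower, where 8.91% of 14330 genes were called higher and 38.9% lower. At a common median 14 were called higher and 6 lower, and after cyclic loess 11 higher and 8 lower, so the direction of the majority depends on the scaling. The 8 higher calls and 6 of the lower calls held under all scalings. Of the 12 antiviral members tested, 5 were higher and 2 lower in CD8a+ cDC. Markers of other cells were lower in CD8a+ cDC as well. They were 3 of 4 T cell markers (array means 4.24 to 4.52 in CD8a+, against 5.74 to 6.65 in CD11b+ cDC), 3 of 4 of NK and innate lymphoid cells (3.57 to 4.03 against 5.35 to 6.32, with 1 higher), 3 of 4 of plasma cells (4.55 to 5.68 against 5.48 to 6.77), 2 of 4 of B cells (4.38 to 4.96 against 5.59 to 6.32), 4 of 7 of macrophages (5.97 to 6.17 against 7.57 to 7.85) and 3 of 5 of epithelium (4.29 to 5.34 against 5.55 to 7.16). Their part in the TRIM differences was not tested.

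Trim6 differed most, at 7.03, 6.98 and 6.91 in untreated CD8a+ cDC, against 4.70, 4.84, 4.60, 4.27 and 4.22 in untreated CD11b+ cDC (difference 2.44 ± 0.14, 2.64 relative to all genes, adjusted p = 8.3e-12). Trim30a measured 10.09, 10.10 and 9.89 in untreated CD8a+ cDC, against 8.46 to 9.18 in untreated CD11b+ cDC (difference 1.31 ± 0.12, 1.57 at a common median, adjusted p = 1.8e-08). Untreated CD8a+ cDC thus had Trim6 above, and Trim30a just below, the R848 level of either subset. Trim35 (0.99 ± 0.17), Trim30d (0.81 ± 0.11), Trim7 (0.71 ± 0.18), Trim34a (0.66 ± 0.18), Trim27 (0.39 ± 0.10) and Trim21 (0.45 ± 0.17) were also higher in CD8a+ cDC. The Trim21 call was lost without any 1 of 4 arrays, with an adjusted p of up to 0.24 when untreated CD8a+ replicate 1 was left out.

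Trim12a had the largest difference of the genes called lower, at 6.73, 6.96 and 6.22 in untreated CD8a+ cDC, against 7.74, 7.72, 8.02, 7.37 and 7.40 in untreated CD11b+ cDC (difference -1.01 ± 0.16, or -0.82 relative to all genes, adjusted p = 3.2e-05). Trim24 measured 5.95, 5.99 and 5.81 in CD8a+, against 6.48 to 6.75 in CD11b+ cDC (difference -0.72 ± 0.08, -0.53 relative to all genes, adjusted p = 5.4e-07). Trim47 (-0.73 ± 0.14) and Trim62 (-0.61 ± 0.11) kept their calls under all scalings. Trim25 (-0.50 ± 0.10), Trim68 (-0.59 ± 0.15), Trim65 (-0.40 ± 0.14) and Trim8 (-0.47 ± 0.17) did not. Of the 14 lower genes 6 were below background in both groups.

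Trim29, Trim30d and Trim30a had the largest differences between LysoMac and cDC. Of 46 TRIM genes, 11 were higher in the 6 untreated LysoMac arrays than in the 8 untreated CD11b+ and DN cDC arrays and 4 were lower, with 14.6% of all 16547 genes called higher and 16.8% lower. All 15 were above background in at least 1 group. The gene names come through the row alignment, but both sides of this comparison come from the same array set and the same rows.

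Trim29, which in mice holds back interferon signalling in alveolar macrophages, was highest in LysoMac. It measured 6.63, 6.09 and 6.83 in TIM-4+ LysoMac and 7.54, 7.31 and 6.94 in TIM-4- LysoMac, against 4.45, 4.82 and 4.75 in DN cDC and 5.06, 5.04, 5.00, 4.89 and 5.10 in CD11b+ cDC (LysoMac minus cDC 2.04 ± 0.11, adjusted p = 7.3e-12). Trim30d measured 9.21, 9.05 and 9.18 in TIM-4+ LysoMac and 8.98, 9.18 and 9.00 in TIM-4- LysoMac, against 7.06 to 7.39 in DN and 7.26 to 7.96 in CD11b+ cDC (difference 1.71 ± 0.09, adjusted p = 2.9e-13). Trim30a measured 9.63 to 9.96 in LysoMac, against 8.17 to 9.18 in cDC (difference 1.26 ± 0.09, adjusted p = 1.4e-10). For all 3 genes each LysoMac array was above each cDC array. Trim6 was also higher, at 5.00 to 5.33 in LysoMac, against 4.22 to 4.84 in cDC (difference 0.63 ± 0.11). Trim14 passed narrowly (0.31 ± 0.12, adjusted p = 0.045) and lost the call without any of 11 of the 14 arrays.

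The other antiviral members tested, Trim12a, Trim12c, Trim21, Trim25, Trim34a, Trim38, Trim56 and Trim69, were not called between LysoMac and cDC. Outside that list Trim3 (0.64 ± 0.11), Trim47 (0.62 ± 0.10), Trim8 (0.55 ± 0.13), Trim7 (0.40 ± 0.13), Trim65 (0.33 ± 0.11) and Trim62 (0.25 ± 0.08) were higher in LysoMac. Trim36 (-0.71 ± 0.08), Trim28 (-0.56 ± 0.09), Trim33 (-0.54 ± 0.10) and Trim27 (-0.31 ± 0.07) were lower in LysoMac. For Trim33 the LysoMac arrays measured 6.24 to 6.53, against 6.77 to 7.34 in the cDC arrays, with no overlap. Of the sensing and interferon genes 12 of 20 were higher in LysoMac and 0 lower, Irf7 by 2.71, and of the E1 and E2 enzymes 1 of 13 was higher, Ube2l6 by 1.77, and 5 were lower. Among markers, 5 of 7 macrophage genes were higher in LysoMac and 1, Fcgr1, was lower (9.48 to 9.75, against 7.53 to 7.85 in cDC). All 5 cDC genes were lower (5.73 to 6.59, against 9.14 to 9.83 in cDC). Markers of further cells were lower in LysoMac than in the mean of both cDC groups. For stromal and endothelial cells they were 6 of 7 genes, with 4.35 to 5.19 in LysoMac, 6.56 to 6.87 in DN and 4.26 to 5.08 in CD11b+ cDC. The CD11b+ cDC range thus overlapped that of LysoMac. The others were 4 of 5 T cell genes (4.94 to 5.59 in LysoMac, against 5.52 to 6.51 in cDC), 3 of 5 of NK and innate lymphoid cells (3.72 to 4.81 against 4.90 to 6.10), 3 of 5 of B cells (5.88 to 6.18 against 5.72 to 6.80, with 1 higher) and 3 of 6 epithelial genes (4.46 to 5.34 against 5.31 to 7.14). Their part in the TRIM differences was not tested.

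**Figure D5:**
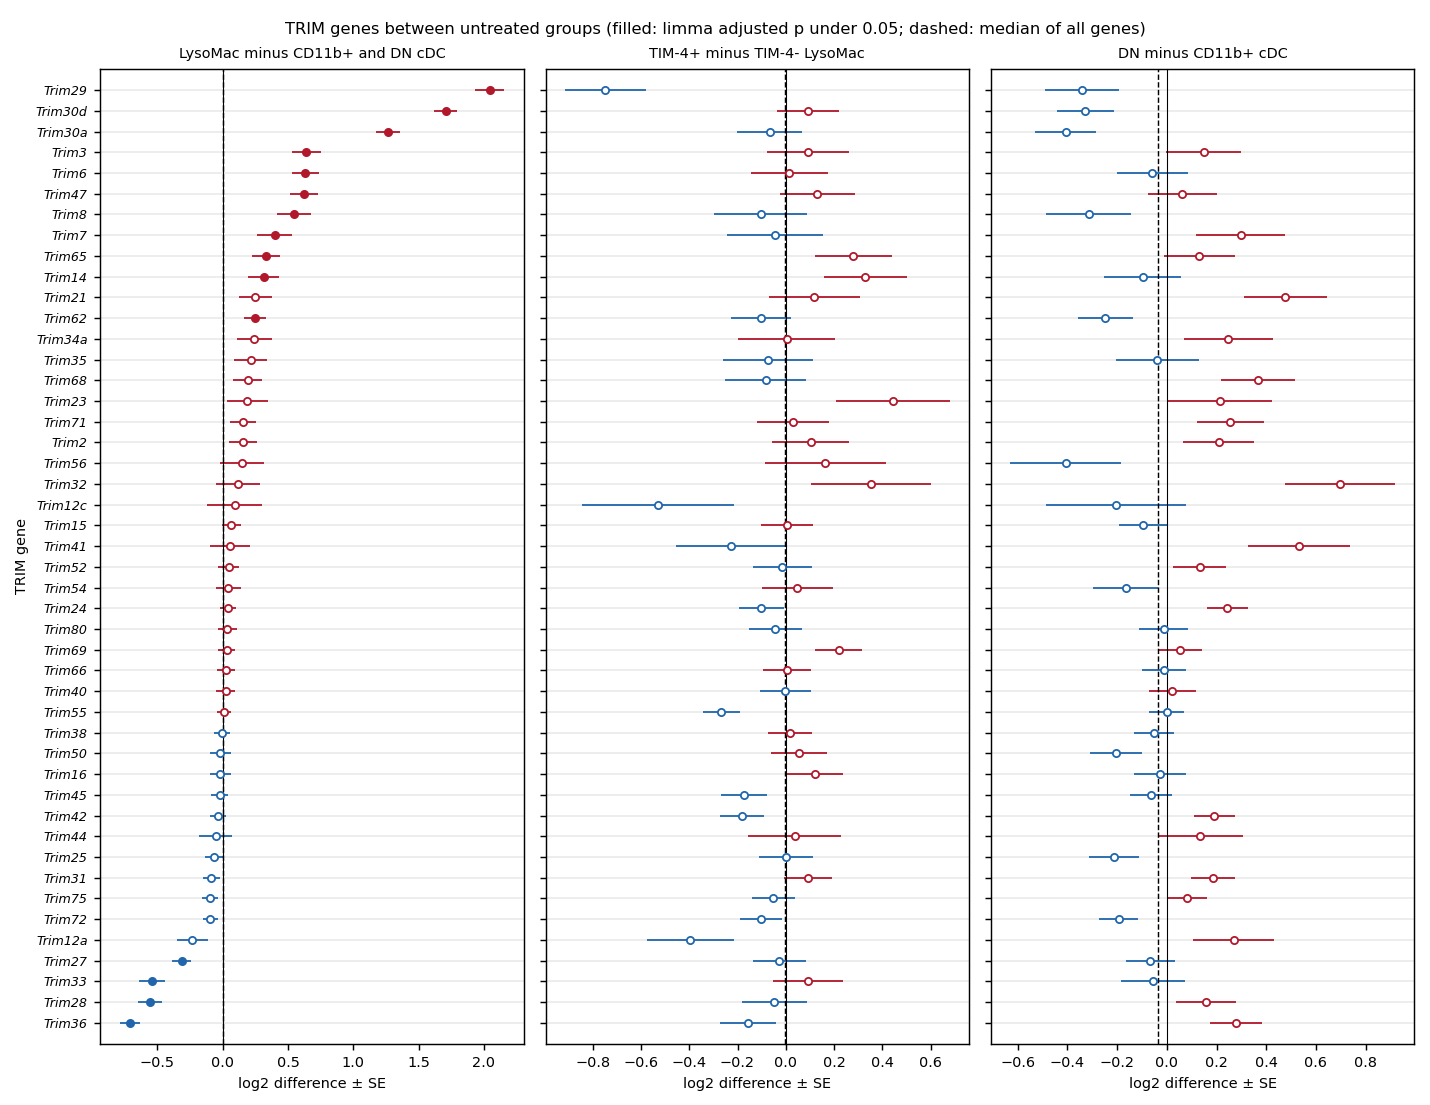
Differences in TRIM genes between untreated groups, as log2 differences with standard errors from limma: LysoMac minus CD11b+ and DN cDC, TIM-4+ minus TIM-4- LysoMac, and DN minus CD11b+ cDC. Trim29 (2.04) and Trim30d (1.71) lead in LysoMac, and no filled point stands in the TIM-4 and DN panels, where filled means an adjusted p under 0.05.

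Between TIM-4+ and TIM-4- LysoMac none of the 46 TRIM genes tested was called by limma, with 0.405% of all genes called. At an unadjusted p under 0.05 there were 4, a looser threshold for which the share of all genes was not computed. The nearest was Trim29, which was lower in TIM-4+ LysoMac (6.09 to 6.83) than in TIM-4- LysoMac (6.94 to 7.54), by -0.75 ± 0.17 (adjusted p = 0.054). Its arrays did not overlap, and it passed the test at a common median (adjusted p = 0.043).

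Of 46 TRIM genes likewise none was called between DN and CD11b+ cDC by limma, with 4.21% of all genes called. At an unadjusted p under 0.05 there were 14, which cannot be set against that share because the thresholds differ. The share of all genes at the looser threshold was not computed, so the 14 are not read as a result about the family. Trim30a measured 8.17, 8.37 and 8.38 in DN, against 8.43 to 9.18 in CD11b+ cDC (difference -0.41 ± 0.12, adjusted p = 0.063). Trim32, an NHL-repeat member, was 0.70 ± 0.22 higher in DN cDC (adjusted p = 0.086). With the arrays at a common median Trim30a, Trim30d and Trim72 passed as lower in DN cDC. In this comparison 6 of 7 markers of stromal and endothelial cells were higher in DN cDC (6.56 to 6.87, against 4.26 to 5.08 in CD11b+ cDC), and their part in these values was not tested.

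Across the 7 groups, Trim30a and Trim30d ran in nearly the same order, highest in R848 CD8a+ cDC and then R848 CD11b+ cDC, and lowest in untreated CD11b+ and DN cDC. Trim30a in untreated CD8a+ cDC (10.03 ± 0.12, SD, n = 3) came close to its level in R848 CD11b+ cDC (10.24 ± 0.13, SD, n = 3). Trim30d in untreated CD8a+ cDC (8.37 ± 0.05, n = 3) lay below both LysoMac groups (9.15 ± 0.08 in TIM-4+ and 9.06 ± 0.11 in TIM-4-, n = 3 each). Trim24 kept another order, with R848 CD8a+ cDC highest, R848 CD11b+ cDC next and untreated CD8a+ cDC lowest.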

How the data were processed

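The deposited table held log2 signals of 25 Affymetrix Mouse Gene 1.0 ST arrays, which the authors computed with RMA in Affymetrix Expression Console 1.4.1, per the submitters' processing notes. The genome build of the probe annotation is not given in the sources used here. Samples were grouped by their labels. R848-treated samples bear "steady state" in their titles too; the treatment labels were followed. The series design calls the replicates independent, and each pooled 42 mice.

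The row names fitted the R848 arrays only. The rows of both untreated sets were aligned to them by a monotone order match within 300 rows, keeping a row when 3 settings agreed on its partner, no row was passed over within 2 rows, and the 8 rows on each side correlated at 0.7 or more. Accepted were 22834 of 28939 rows (78.9%) in the CD11b+, DN and LysoMac set and 23018 (79.5%) in the CD8a+ set. A table rolled out of place gave 35 and 20. Clusters of the same gene correlated at 0.83 and 0.82 after alignment, against 0.14 and 0.08 as deposited. A direct alignment of both untreated sets paired 99.6% of 18035 rows alike, including all 35 TRIM genes it covered. Of the 42 TRIM genes with a row in all sets, it did not cover Trim2, Trim6, Trim7, Trim25, Trim31, Trim34a and Trim75. In simulated tables at most 1.02% of accepted rows were wrong. These tables were made from the R848 groups, which share an array set, with noise added and 500 rows taken out and put in. The figure is therefore not an error rate for the untreated sets. Neighbourhood correlations of the TRIM genes were lowest for Trim54 (0.71) and Trim27 (0.73) in the CD11b+, DN and LysoMac set and for Trim27 (0.71), Trim52 (0.78) and Trim24 (0.79) in the CD8a+ set. Single-symbol rows were used (6 rows that join a Trim symbol with others were left out).

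Group means of all arrays were fitted with limma 3.58.1 in R 4.3.3, with Benjamini-Hochberg adjustment over all genes tested. No fit imputed a value. On simulated data limma recovered 94 of 100 genes changed by 1 on the log2 scale in the R848 response of CD11b+ cDC, with 15 false calls among 16547 genes. These data held independent noise, with no offset between array sets and no misaligned rows. The false calls are therefore not an error rate for the comparisons reported here. The number of arrays limits the precision. Named were up to 10 called genes per direction with the largest difference and the antiviral list. The members and lists were chosen with earlier results of these data known. Alternatives were other scalings, row acceptance, spread estimates, array weights, a dim-gene filter, a replicate block and leaving out each array. Promoters came from RefSeq.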

Additional observations from a re-analysis of the deposited data

Results flagged for a closer look

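Dixon's test was run for each gene in each group of 5 arrays. It flagged an array far from the others in 7 of 104 such tests, and chance flags about 1 in 20. On the log2 scale, R848 CD8a+ replicate 4 was the lowest of its group for Trim14 (7.69, next 8.25) and for Trim7 (4.19, next 4.72). R848 CD8a+ replicate 1 was the lowest for Trim30d (9.93, next 10.06). In the same group replicate 5 was the highest for Trim46 (4.41, next 4.23) and replicate 2 for Trim69 (3.96, next 3.64). Untreated CD11b+ replicate 1 was the lowest for Trim25 (7.74, next 8.08), and untreated CD11b+ replicate 5 the highest for Trim55 (3.62, next 3.42).

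The R848 response differed between CD8a+ and CD11b+ cDC for 13 of 42 genes by the interaction term of limma. In the same test 27.4% of all 14330 genes were called higher and 6.12% lower. Under all scalings 4 higher and 3 lower TRIM calls held. The response in CD8a+ minus that in CD11b+ cDC was -1.72 for Trim6, -1.06 for Trim30a and -0.59 for Trim27. It was 1.35 for Trim24, 1.11 for Trim12a, 0.80 for Trim47, 0.66 for Trim62, 0.65 for Trim25 and 0.61 for Trim42. It was 0.42 for Trim31, 0.40 for Trim55, 0.39 for Trim15 and 0.36 for Trim72, which were below background in all 4 groups and were not called at a common median.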

How the results depend on the processing

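Of 2753 values of named genes and comparisons under the alternatives, 2613 kept direction and side of the threshold, 118 lost a call, 22 gained one and 0 reversed. Stricter row acceptance left few members testable: 10 calls of 17 members for R848 in CD11b+ cDC, 13 of 25 for R848 in CD8a+ cDC, 0 of 3 for the subset difference, 1 of 3 for untreated CD8a+ against CD11b+ cDC and 5 of 17 for LysoMac against cDC. It dropped Trim30a, Trim30d, Trim12a and Trim12c from the CD11b+ set and Trim6, Trim34a, Trim14, Trim21 and Trim24 from the CD8a+ set. Restricting to genes above the median level gave 16 calls of 28 for R848 in CD8a+ cDC and 8 of 24 for the subset difference, as fewer genes were tested. Array weights gave 21 calls for the subset difference, where the cause was not tested. CD8a+ against CD11b+ cDC after R848 had 3 calls at a common median and 3 after cyclic loess. TIM-4+ against TIM-4- LysoMac had 1 call with array weights, at a common median and among genes above the median level, in each case Trim29 (-0.88, -0.76 and -0.75). DN against CD11b+ cDC had 1 call with array weights (Trim30d), 3 at a common median and 1 with only the groups compared (Trim32). Leaving out single arrays gave 15 to 22 calls for R848 in CD11b+ cDC (15 without R848 CD11b+ replicate 3), 26 to 31 for R848 in CD8a+ cDC, 12 to 15 for the subset difference, 2 to 6 for CD8a+ against CD11b+ cDC after R848 (2 without R848 CD11b+ replicate 2, and 3 without R848 CD11b+ replicate 3 or R848 CD8a+ replicate 3 or 5), 19 to 21 for the same subsets untreated, 11 to 16 for LysoMac, 0 to 1 for TIM-4 (1 without TIM-4+ replicate 3 or TIM-4- replicate 3, Trim29) and 0 to 1 for DN (1 without untreated CD11b+ replicate 1, 2 or 5). Same-numbered arrays of different groups correlated weakly in their deviations from the group means (65 pairs, r from -0.23 to 0.18, 10 over 0.1). Inside the set with untreated CD11b+ cDC, DN cDC and LysoMac, r ran from -0.10 to 0.18. Differently numbered arrays were not compared, so whether replicate numbers pair the samples was not settled. With the replicate block there were 21, 29 and 14 calls for R848 in CD11b+ cDC, R848 in CD8a+ cDC and the subset difference. The block gave 4 for CD8a+ against CD11b+ cDC after R848, 22 for these untreated, 13 for LysoMac, and 0 for TIM-4 and for DN. Genes near background carry little information in any setting.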
